A study of Oryza sativa with 24 samples.

Results

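EL2 (LOC4331332, on chromosome 3) is a rice gene for an inhibitor of cyclin-dependent kinases, and it was chosen by its measured rise in cold on the arrays described here. It is 1 of 17905 genes that the annotation pairs with a probe set, and 2 probe sets report it, Os.27807.1.S1_at and Os.27807.1.S1_a_at. Its changes with time are therefore given as a description, with no test. Cyclin-dependent kinases are switched on by cyclins. Some of them carry a cell through DNA replication and division, and inhibitor proteins bind the kinase and cyclin pair and hold it back. Plants have a pair of known inhibitor families, the Kip-related proteins (KRP) and the SIAMESE-related proteins, whose name comes from an Arabidopsis gene. EL2 belongs to the SIAMESE-related type. It was first found in cultured rice cells as a gene switched on quickly by fragments of chitin, the wall polymer of fungi, and its protein has been reported to bind A-type kinases and D-type cyclins.

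Affymetrix arrays measured RNA of the shoot and leaves of rice seedlings at the stage with 4 leaves. After 6 h in a chamber at 4 °C with 14 h of light and 10 h of dark, 8 arrays were made. A further 8 followed after 24 h there, and 8 were made before the move. The accessions MH63, Lixingeng, Muguanuo, Youmangzaogeng, Geng87-304, ZS97, IRAT109 and 9311, all grown in potting soil, gave 1 array to every group, so that the accessions are the replicates of a time. No untreated array at 6 h or 24 h was analysed here, so that cold and the time of day or seedling age cannot be told apart. The labels do not say whether arrays came from separate plantings or pooled plants, and p-values measure only the spread between these samples.

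A pair of arrays stood apart. Lixingeng before cold and MH63 at 24 h, of different accessions and times, had a Spearman correlation of 0.992 over all probe sets, the highest of 276 pairs, of which the next was 0.981. The labels of this pair may therefore not describe their RNA, which was not tested, and every value of these arrays stands as labelled. EL2 values and list counts are given also without both accessions, as are the calls of named genes that change without them. As a check of the labels, DREB1B and DREB1A, transcription factors of the cold response, rose by a log2 of 4.52 and 4.13 at 6 h (limma, adjusted p = 1.18e-05 and 2.41e-05), and by 4.43 and 3.62 at 24 h (limma, adjusted p = 1.36e-06 and 1.09e-05). DREB1B read 4487 on the Lixingeng array before cold, its highest value before cold, where the median was 120. In 8 of 8 accessions the upper quartile of intensity was below its value before cold, with a mean difference of -5.63 ± 2.37 (SD) at 6 h and -8.52 ± 3.20 at 24 h. For actin, the log2 of 3′ over 5′ signal, which reflects RNA quality, was 2.95 to 4.62 on all arrays, so that 3′ signal was far the stronger. This log2 ratio differed from before cold by -0.02 ± 0.23 at 6 h, being lower in 5 of 8 accessions. At 24 h it differed by -0.43 ± 0.31 and was lower in 8 of 8. Of 9 listed markers of leaf, meristem and root, none passed at 6 h (limma; 1 was lower at an unadjusted p under 0.05), and at 24 h LSI1, a silicon channel of roots, was lower (log2 change -0.75), as it was at 6 h without Lixingeng and MH63 (-0.31; limma, adjusted p = 0.0352). The leaf markers RCA and CAB2R had medians of 11433 to 11744 and of 8251 to 8734 at the 3 times. RBCS1 read 2.92 to 13.5, while RBCS, another gene of the rubisco small subunit, had medians of 2490 to 3049. The meristem marker OSH1 read 0.667 to 5.06, and the root markers HKT1.5, PT11 and LSI2 were also dim. Only 4 of the 9 markers read over 50 on at least 6 arrays. Over all probe sets 2.79% were called higher and 6.96% lower at 6 h, and 13.3% and 19.8% at 24 h, so that calls among 9 genes tell little. The part of these measures in the results below was not tested.

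EL2 was lower before cold than on every cold array of the same accession. In 9311, Os.27807.1.S1_at read 93.1 before cold, 686 at 6 h and 1354 at 24 h. IRAT109 read 343 before cold, 1900 at 6 h and 2829 at 24 h, and the last was the highest of all 24 arrays. In ZS97 the probe set read 127 before cold, 732 at 6 h and 1148 at 24 h. These accessions each had their highest reading at 24 h. Geng87-304 read 104 before cold, 1126 at 6 h and 1419 at 24 h. In Youmangzaogeng it read 240 before cold, 2123 at 6 h and 2100 at 24 h. Muguanuo had the lowest reading of all, 91.8 before cold, and read 917 at 6 h and 1537 at 24 h. Youmangzaogeng differed from the other two here in that its cold readings were nearly equal. The remaining accessions hold the arrays that stood apart. Lixingeng read 545 before cold, 1387 at 6 h and 1653 at 24 h. MH63 read 111 before cold, 624 at 6 h and 479 at 24 h. The 6 h and before arrays did not overlap, since the lowest at 6 h (MH63, 624) lay above the highest before cold (Lixingeng, 545). The 24 h and before arrays overlapped only through the pair that stood apart, since MH63 at 24 h lay below Lixingeng before cold.

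**Figure D1:**
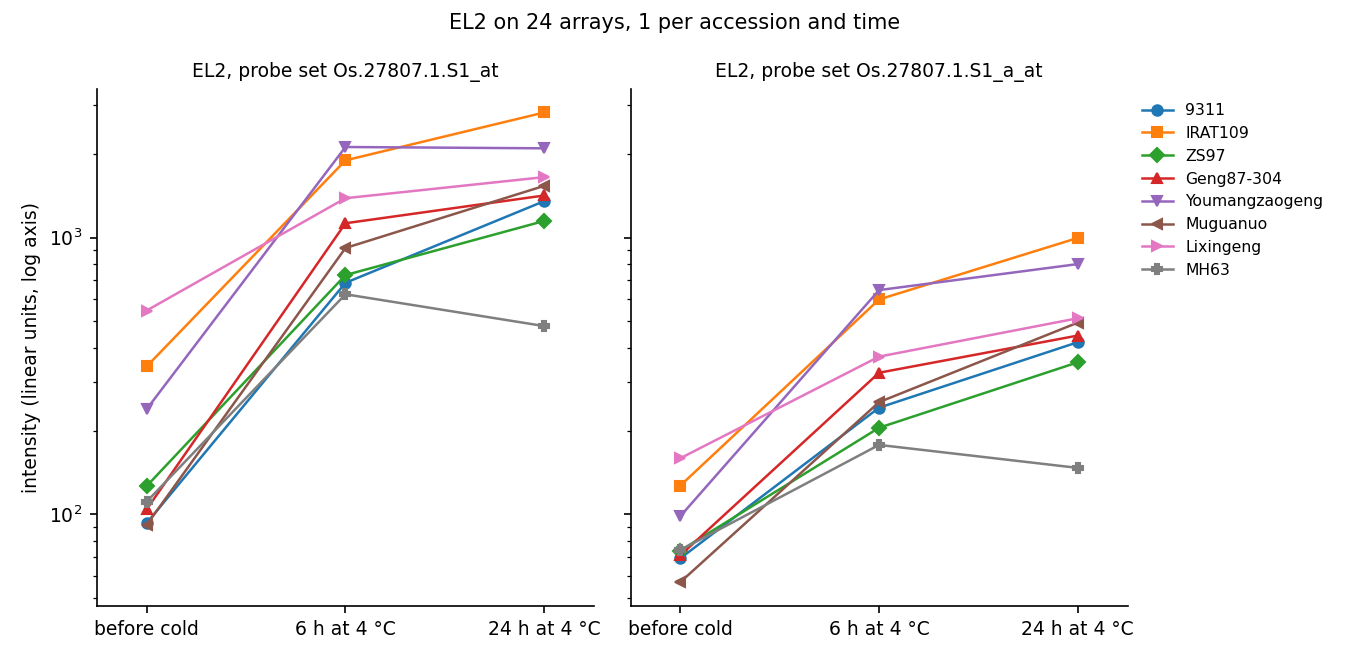
Intensity of EL2 (log axis) before cold and after 6 h and 24 h at 4 °C, 1 point per array, for probe set Os.27807.1.S1_at on the left and Os.27807.1.S1_a_at on the right, with a line for each accession. Every line climbs to 6 h, and the line of MH63 falls from 6 h to 24 h in both panels.

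The second probe set, Os.27807.1.S1_a_at, gave the same order of groups. Before cold it read 56.9 in Muguanuo, the lowest, to 160 in Lixingeng, with a median of 74.2. At 6 h it read 178 in MH63 to 646 in Youmangzaogeng, with a median of 289.7. At 24 h it read 147.3 in MH63 to 997 in IRAT109, with a median of 468. Again only MH63 at 24 h lay below the Lixingeng array before cold. On every array the reading of EL2 was above the array's median, by 2.01 times or more for Os.27807.1.S1_at and 1.33 times or more for Os.27807.1.S1_a_at.

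At 6 h EL2 was 5.49-fold higher than before cold by Os.27807.1.S1_at (mean log2 change 2.46 ± 0.58, SD, n = 8), and higher in 8 of 8 accessions. The log2 changes ran from 1.30 in Lixingeng and 2.20 in MH63 to 2.94 in Muguanuo, 2.99 in Youmangzaogeng and 3.09 in Geng87-304. At 24 h it was 7.16-fold higher than before cold (2.84 ± 0.77), also in 8 of 8 accessions. There the changes ran from 1.55 in Lixingeng and 1.83 in MH63 to 3.41 in Geng87-304, 3.47 in 9311 and 3.66 in Muguanuo. The accessions with the smallest changes at both times were the same, Lixingeng and MH63, whose before and 24 h arrays stood apart. Without them the folds were 6.47 at 6 h (2.69 ± 0.35, SD, n = 6) and 9.34 at 24 h (3.22 ± 0.33). The 6 h and 24 h values share the arrays before cold. Changes are on the scale of log2(intensity + 32), which understates those of dim readings.

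The step from 6 h to 24 h was smaller than that from before cold to 6 h. The 24 h reading was higher than the 6 h reading in 6 of 8 accessions by Os.27807.1.S1_at, by a mean log2 of 0.38 ± 0.42 (1.30-fold). The SD, which is the spread between single accessions, was larger than this mean. The difference was 0.95 in 9311 and 0.73 in Muguanuo, -0.02 in Youmangzaogeng and -0.36 in MH63. Without Lixingeng and MH63 it was 0.53 ± 0.34, above 0 in 5 of 6 accessions. By Os.27807.1.S1_a_at it was 0.49 ± 0.35, above 0 in 7 of 8 accessions, and 0.62 ± 0.22 in 6 of 6 without Lixingeng and MH63.

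Os.27807.1.S1_a_at gave smaller changes from before cold. They were 1.56 ± 0.49 at 6 h (2.95-fold) and 2.05 ± 0.67 at 24 h (4.14-fold), higher in 8 of 8 accessions at both times. The change by Os.27807.1.S1_at was the larger in 8 of 8 accessions at 6 h, by a log2 of 0.89 ± 0.42, and in 8 of 8 at 24 h, by 0.79 ± 0.51. The order of accessions differed too. By Os.27807.1.S1_a_at the largest change at 6 h was that of Youmangzaogeng (2.38) and at 24 h that of IRAT109 (2.69), with Youmangzaogeng next (2.68), while by Os.27807.1.S1_at Geng87-304 and Muguanuo had the largest. Over the 24 arrays, with each accession's mean taken off, the probe sets had a Pearson r of 0.976.

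**Figure D2:**
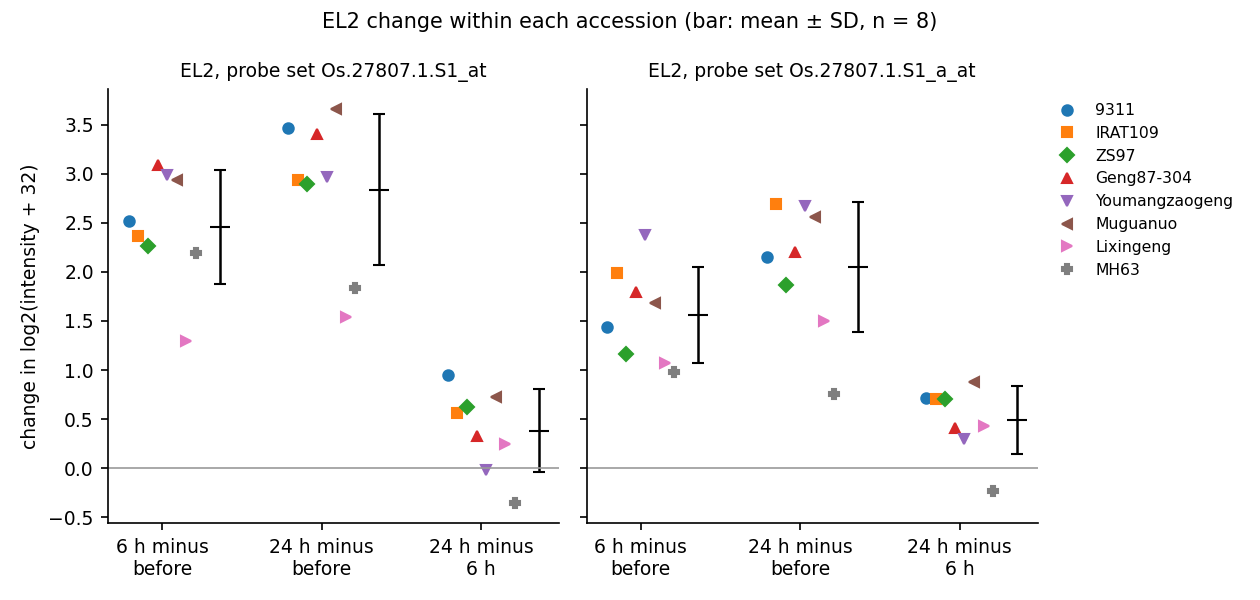
Change of EL2 in log2(intensity + 32) within each accession, for 6 h minus before, 24 h minus before and 24 h minus 6 h, with the mean and SD over 8 accessions as a black bar, for each probe set. All points of both changes from before cold lie above 0, and MH63 lies below 0 for 24 h minus 6 h in both panels.

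Among all 57258 probe sets tested, Os.27807.1.S1_at had the 34th largest mean rise at 6 h and the 66th at 24 h, and Os.27807.1.S1_a_at the 101st and the 187th. In this fit 2.79% of probe sets were called higher at 6 h and 13.3% at 24 h (limma, adjusted p under 0.05), and 6.96% and 19.8% were called lower. For 24 h minus 6 h the ranks were 1707th and 1258th. With 1 probe set per gene, EL2 stood 25th of 17905 genes at 6 h and 51st at 24 h. Since EL2 was picked for this rise, these ranks only place it. In bulk tissue a higher level cannot be told apart between more RNA per cell and more cells that express the gene.

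Arrays of different accessions differed in EL2 beyond the change with time. Each accession's arrays at the different times stood as its replicates. The labels do not give plantings, so a difference of accession cannot be told apart from a difference of planting. EL2 was chosen with earlier results of these data known, so independence of the accession test from that choice is not established. The accession term of the fit gave F = 8.82 for Os.27807.1.S1_at (limma moderated F test, adjusted p = 0.000464) and F = 7.78 for Os.27807.1.S1_a_at (adjusted p = 0.000894). Over the alternatives run for Os.27807.1.S1_at its adjusted p lay between 1.39e-05 and 0.00480, and it was 1.39e-05 without Lixingeng and MH63. Such a difference was common, as 54.3% of all probe sets were called for the accession. The residual SD of Os.27807.1.S1_at fell to 0.24 without these accessions, against 0.43 with them.

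IRAT109 was the highest accession on average, at a log2 of 0.89 ± 0.09 above the mean of the arrays of the same time by Os.27807.1.S1_at (SD over 3 times). Lixingeng followed at 0.69 ± 0.71 and Youmangzaogeng at 0.65 ± 0.28. These accessions held the top 3 places at each time and by both probe sets. Below them came Geng87-304 at -0.17 ± 0.35, Muguanuo at -0.28 ± 0.41 and ZS97 at -0.40 ± 0.13. The lowest were 9311 at -0.46 ± 0.35 and MH63 at -0.92 ± 0.52. Of the 7 pairs of neighbours in this order, Youmangzaogeng above Geng87-304 was the one pair in which the first was higher at all 3 times. The other neighbours changed places at 1 time or more. The wide SD of Lixingeng came with its array before cold (a deviation of 1.51, against 0.35 at 6 h and 0.22 at 24 h), and that of MH63 with its array at 24 h (a deviation of -1.50, against -0.50 before cold and -0.76 at 6 h). By Os.27807.1.S1_a_at the one such pair was Lixingeng above Geng87-304, and MH63 was again the lowest (-0.79 ± 0.65).

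In cold the 3 lowest accessions were 9311, ZS97 and MH63, at 6 h and at 24 h and by both probe sets. At 6 h they read 686, 732 and 624 by Os.27807.1.S1_at, and the other 5 accessions read 917 or more. At 24 h they read 1354, 1148 and 479, and the others 1419 or more. The MH63 array at 24 h is 1 of the pair that stood apart. At 24 h 9311 lay only a little below Geng87-304, at 1354 against 1419, and at 419 against 443 by Os.27807.1.S1_a_at. Before cold ZS97 and MH63 were above Geng87-304 and Muguanuo. This set was noticed in the values, so it was not tested. With 1 array per accession and time, the response of a single accession could not be tested against another.

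**Figure D3:**
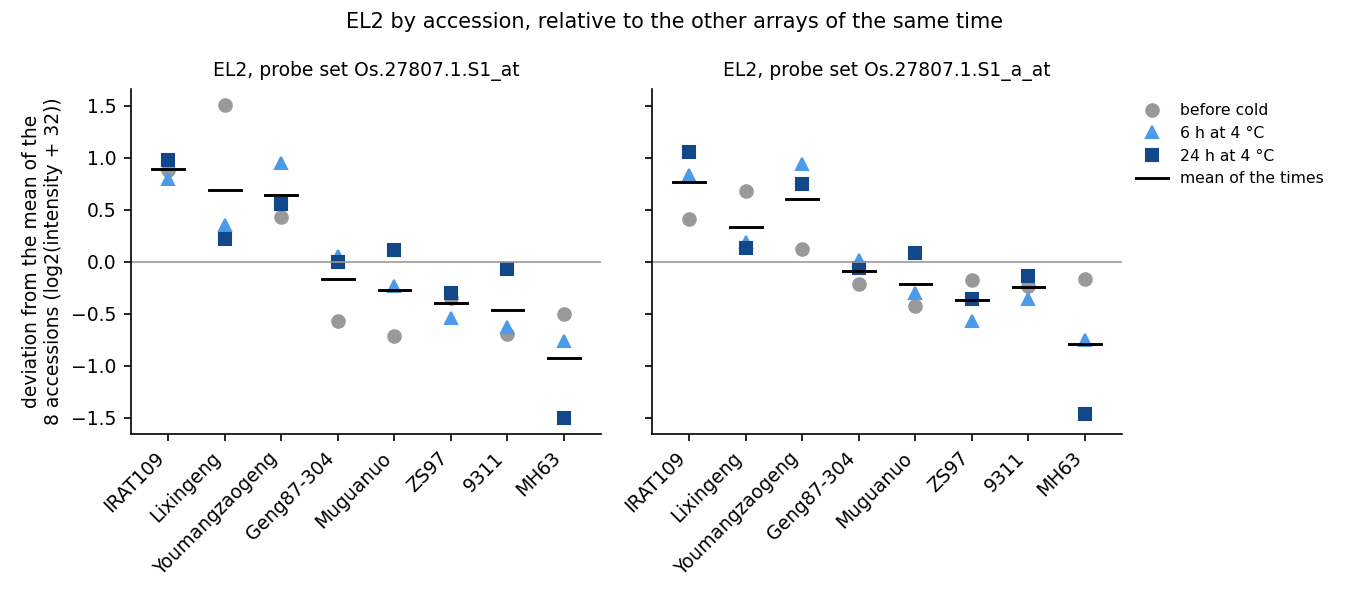
Deviation of EL2 from the mean of the 8 accessions at the same time, in log2(intensity + 32), by accession in the order of Os.27807.1.S1_at, with a symbol for each time and a bar at the mean of the times. IRAT109, Lixingeng and Youmangzaogeng lie above 0 at each time in both panels, and MH63 is lowest on average.

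Of the other inhibitors of cyclin-dependent kinases, KRP1 and KRP6 were lower at 24 h and KRP4 and SMR1 higher. By symbol 5 were measured, namely KRP1, KRP4, KRP5, KRP6 and a gene with the synonym SMR1, while KRP2 and KRP3 had no probe set of their own in the annotation and were not analysed here. At 6 h 0 of 5 were called higher (limma, and 0 also at an unadjusted p under 0.05) and 1 lower, beside 2.79% and 6.96% of all probe sets, and these counts of few genes lie near those shares. At 24 h 2 were called higher and 2 lower, beside 13.3% and 19.8%. KRP1 (LOC4330816) read a median of 327 (219 to 548) at 6 h and 257 (230 to 361) at 24 h, against 426 (352 to 651) before cold, so that its cold arrays were mostly below those before. It fell by 0.37 ± 0.27 on the log2 scale at 6 h (SD, n = 8; limma, adjusted p = 0.00610) and by 0.62 ± 0.22 at 24 h (limma, adjusted p = 1.07e-05), in 8 of 8 accessions at both times. KRP6 (LOC4347280) read a median of 199 at 24 h, against 317 before cold. It fell by 0.59 ± 0.35 at 24 h (limma, adjusted p = 0.000164), in 7 of 8 accessions, and its log2 change at 6 h was -0.31 (limma, adjusted p = 0.0688), or -0.35 without Lixingeng and MH63, which passed (0.0434). Another probe set of KRP6, which read under 41 on all arrays, had a log2 change of 0.00 at 24 h.

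KRP4 (LOC4348872) was the one KRP gene called higher, at 24 h, by a log2 of 0.33 ± 0.40 (limma, adjusted p = 0.0135), in 6 of 8 accessions. It read a median of 231 (127 to 350) at 24 h, against 163 (138 to 238) before cold, and the groups overlapped. The call was lost when Geng87-304, Lixingeng or Muguanuo was left out (adjusted p up to 0.0604), and without both Lixingeng and MH63 (0.0608), and a dim second probe set changed by -0.03. SMR1 (LOC4349289) read a median of 36.3 (16.4 to 113) at 24 h, against 18.0 (16.1 to 36.3) before cold. It was called higher at 24 h, by 0.47 ± 0.65 (limma, adjusted p = 0.0220), a call lost without any 1 of 4 accessions, Geng87-304, Lixingeng, Muguanuo or Youmangzaogeng (adjusted p up to 0.0858). KRP5, also dim, had log2 changes of -0.19 at 6 h (limma, adjusted p = 0.0514) and -0.02 at 24 h (0.806). Without Lixingeng and MH63 the 6 h change was -0.23, which passed (0.0350), so that 3 of the 5 were then called lower at 6 h. The share of all probe sets called lower in that fit is not given here, so this count has none beside it. With all 8 accessions EL2 was 5.49-fold higher at 6 h and 7.16-fold higher at 24 h.

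D-type cyclins, the class reported to bind EL2, start the cycle by pairing with A-type kinases. Of 9 measured, none was called higher (limma, and 0 at an unadjusted p under 0.05) and 1 lower at 6 h, and 2 were called higher and 2 lower at 24 h. The shares of all probe sets were 2.79% and 6.96% at 6 h and 13.3% and 19.8% at 24 h, and these counts lie near them. CYCD6-1 (LOC4343569) read a median of 160 (124 to 269) at 24 h, against 68.1 (57.9 to 132) before cold. It rose at 24 h by 0.93 ± 0.53 (limma, adjusted p = 1.72e-05), in 8 of 8 accessions, after a log2 change of 0.24 at 6 h (limma, adjusted p = 0.310), where it was above 0 in 7 of 8 accessions, all but Lixingeng. CYCD5-3 (LOC4331985) read a median of 132 (48.0 to 163) at 24 h, against 60.4 (32.7 to 81.4) before cold. It rose by 0.68 ± 0.32 (limma, adjusted p = 1.63e-06), in 8 of 8 accessions, after 0.13 at 6 h (0.389). CYCD3-1, dim on all arrays, fell by 0.34 at 24 h (limma, adjusted p = 2.96e-06) and by 0.15 at 6 h (0.0231), where the call was lost in 5 of 8 cases of leaving out 1 accession. CYCD5-1 was called lower at 24 h, by 0.11 (limma, adjusted p = 0.0463), a call lost in 6 of 8 such cases and without both Lixingeng and MH63 (0.2004). CYCD2-2, CYCD3-2, CYCD4-1, CYCD4-2 and CYCD5-2 had log2 changes between -0.09 and 0.09 and did not pass. Without Lixingeng and MH63 the dim CYCD2-2 was called higher at 24 h (0.13; limma, adjusted p = 0.0300), so that 3 D-type cyclins were. No share of all probe sets is given here for that fit. Of the 9 genes, 5 never read over 50.

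The A-type kinases did not pass by the probe sets that represent them. CDKA-1 (LOC4331415) read 21.4 to 29.9 on all arrays, with log2 changes of -0.01 at 6 h and 0.00 at 24 h (limma, adjusted p = 0.942 and 0.990). Another probe set of CDKA-1, shared between transcripts, read 169 to 279 and changed by -0.11 and -0.04 (limma, adjusted p = 0.346 and 0.649). CDKA-2 (LOC4328135) had changes of 0.09 at 6 h and 0.09 at 24 h (limma, adjusted p = 0.475 and 0.311). A dim probe set of CDKA-2, which read 14.0 to 36.1, was lower at both times, by 0.16 and 0.22 on the log2 scale (limma, adjusted p = 0.00825 and 0.000140).

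Over the whole cell cycle list, 54 genes other than EL2 were measured. At 6 h 2 were called higher (3.70%) and 9 lower (16.7%), beside 2.79% and 6.96% of all probe sets, and the median log2 change was -0.05, beside -0.01 for all. At 24 h 11 were called higher (20.4%) and 16 lower (29.6%), beside 13.3% and 19.8%, with a median of -0.02. Without Lixingeng and MH63 there were 2 higher and 11 lower at 6 h, and 12 higher and 14 lower at 24 h. The shares of all probe sets in that fit are not given here. With all accessions, the 11 genes called at 6 h were all called at 24 h too. Both contrasts share the arrays before cold and the fit, which favours such overlap. The overlap over all probe sets is not given here, so this one is not read as a trait of these genes. The 6 h count of 11 was 5 without Muguanuo and 6 without Geng87-304. Of the 54, only 29 read over 50 on at least 6 arrays.

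With the A-type kinases, 12 cyclin-dependent kinases and CKS genes were measured. At 6 h 2 were called higher (16.7%) and 2 lower (16.7%), beside 2.79% and 6.96% of all probe sets. At 24 h 6 were called higher (50%) and 3 lower (25%), beside 13.3% and 19.8%. Those higher at 24 h were CDKG-1, CDKG-2, CDKC-1, CDKD-1, CDKE-1 and CDKB2-1, and those lower were CDKF-3, CDKF-4 and CKS1. The class was made by symbol and does not sort kinases by a role in division, so these counts are not counts of division kinases. CDKG-1 had the largest rise in the list, by 0.57 ± 0.37 at 6 h (limma, adjusted p = 0.0140) and by 1.62 ± 0.55 at 24 h (1.23e-07), with a median of 864 at 24 h against 247 before cold. Its 6 h call was lost without 9311 (adjusted p = 0.0501), and a dim second probe set changed by 0.06 and 0.08. CDKB2-1, a kinase of the B type that acts around mitosis, rose at 24 h by 0.86 ± 0.28 (limma, adjusted p = 1.77e-07), in 8 of 8 accessions, with a median of 114 at 24 h against 44.6 before cold. CDKG-2 was the other gene called higher at 6 h, by 0.22 (limma, adjusted p = 0.0293), a call lost in 5 of 8 cases of leaving out 1 accession (up to 0.0912). Its other probe sets changed by -0.07 and -0.07 there, and 1 of them was lower at 24 h (by 0.22; limma, adjusted p = 0.00458) where the first was higher by 0.46. CDKF-3 fell by 0.50 at 6 h and by 0.76 at 24 h (limma, adjusted p = 4.70e-06 and 1.27e-08), in 8 of 8 accessions at both times. CDKF-4 had log2 changes of -0.38 and -0.40 (limma, adjusted p = 0.000848 and 8.99e-05), also lower in 8 of 8 accessions at both times. CKS1 changed by -0.29 at 24 h (limma, adjusted p = 0.00588).

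Genes for replicating DNA and packing it were called lower or did not pass. Over all probe sets 6.96% were called lower at 6 h and 19.8% at 24 h, and 2.79% and 13.3% higher. Histone H2B genes, whose product packs newly made DNA, made up the 3 largest falls of the list at 6 h. H2B.6 fell by 0.66 and 0.86 at 6 h and 24 h (limma, adjusted p = 0.0141 and 0.000460), H2B.10 by 0.61 and 0.82 (0.0207 and 0.000566) and H2B.11 by 0.59 and 0.53 (0.0311 and 0.0200). Of 5 H2B genes measured these 3 were called lower at both times, and they are closely similar copies, so that their probe sets may not be told apart. Each of the 6 h calls was lost when Geng87-304 or Muguanuo was left out, and that of H2B.11 also without Lixingeng and MH63 (adjusted p = 0.0628). The 24 h call of H2B.11 was lost without 9311 (0.0614) or ZS97 (0.0734). PCNA, the clamp of the replication machinery, read a median of 46.8 at 24 h, against 91.1 before cold. It fell by 0.59 ± 0.29 at 24 h (limma, adjusted p = 3.29e-05), and at 6 h by 0.29 (0.0497), a call lost in 6 of 8 cases of leaving out 1 accession. ORC2, a subunit of the complex that marks replication origins, fell by 0.43 at 24 h (limma, adjusted p = 0.000185), and the dim MCM2 and MCM4 by 0.16 and 0.13 (0.00841 and 0.0331). The call of MCM4 was lost in 5 of 8 such cases (adjusted p up to 0.124, with a change of -0.09 without Muguanuo). The other 10 of 14 replication genes did not pass at 24 h, 1 of them being higher at an unadjusted p under 0.05. The replication genes called lower were thus 7.14% of the class at 6 h and 28.6% at 24 h. For so few genes these lie near the shares of all probe sets. Only 3 of the 14 read over 50 on at least 6 arrays. Without Lixingeng and MH63 ORC5 was called higher at 24 h (0.18; adjusted p = 0.0319) and MCM6 lower at 6 h (-0.19; 0.0452). Of 4 B-type cyclins 1 was called lower at 6 h and 2 at 24 h, CYCB2-1 by 0.18 and 0.20 and CYCB1-3 by 0.12, a call lost without Lixingeng and MH63 (limma, adjusted p = 0.0707). Of 3 A-type cyclins the dim CYCA3-2 was called higher at 24 h, by 0.14. Of the class of RBR, WEE1, E2F or Aurora, only the dim RBR1 and RBR2 were measured. Neither passed (limma, and 0 at an unadjusted p under 0.05). WEE1 had no probe set of its own in the annotation, and no E2F or Aurora gene was matched by symbol.

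**Figure D4:**
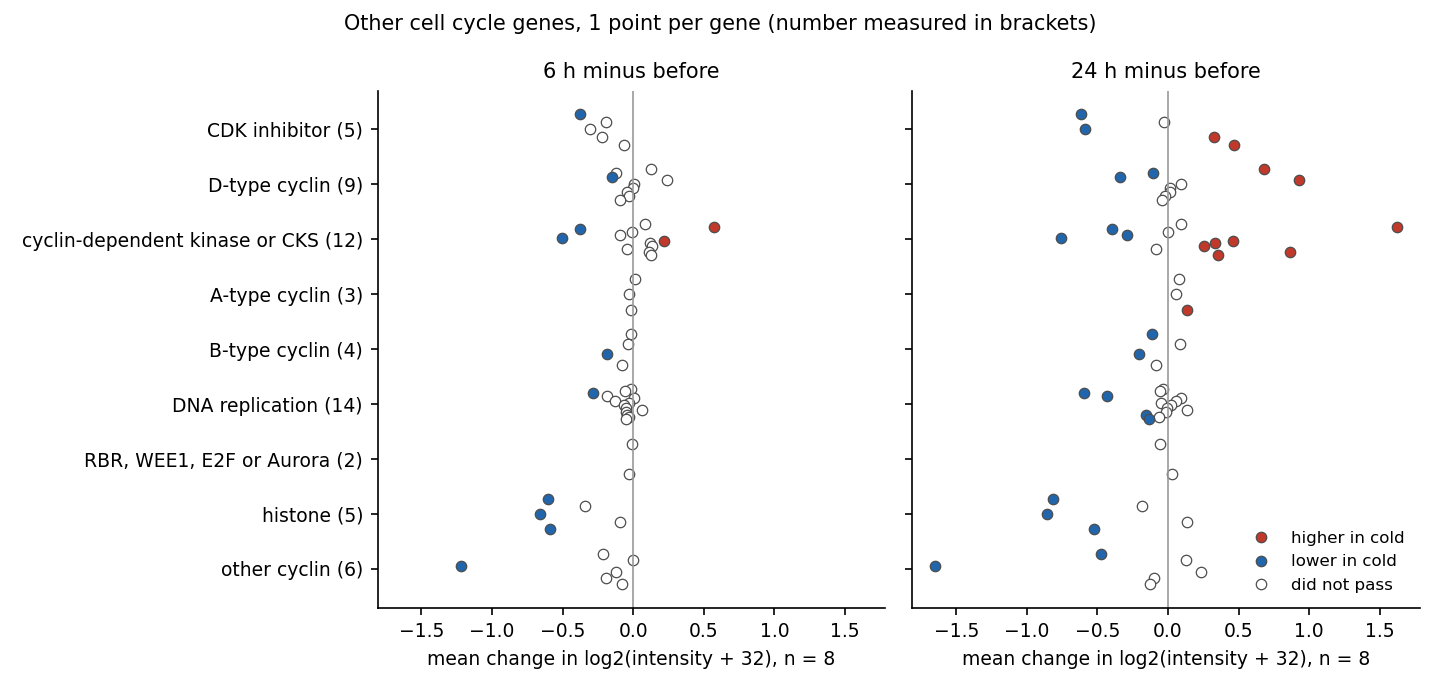
Mean change of the other cell cycle genes in log2(intensity + 32), 1 point per gene by class, 6 h minus before on the left and 24 h minus before on the right, with genes called higher in red, called lower in blue and not passing in white. CDKG-1 lies farthest to the right at 24 h (1.62).

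The second background of EL2 is its response to chitin fragments, so genes of that pathway were set beside it. Of 32 measured, 4 were called higher (12.5%) and 3 lower (9.38%) at 6 h, and 5 higher (15.6%) and 7 lower (21.9%) at 24 h, beside 2.79%, 6.96%, 13.3% and 19.8% of all probe sets. The median log2 change was 0.02 at 6 h and -0.04 at 24 h. With quantile normalization the split at 6 h was 5 higher and 2 lower. For the fit without Lixingeng and MH63 the shares of all probe sets are not given here. It had 5 higher and 3 lower at 6 h, and 6 higher and 9 lower at 24 h. Gained there were CHT7 as higher at both times (limma, adjusted p = 0.0264 and 0.00167), CHT10 as lower at 6 h (-0.80; 7.95e-05), and CPS2 and CYP76M7 as lower at 24 h (0.0267 and 0.00237).

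The receptors of the pathway were not among those called higher. CEBIP, the receptor that binds chitin, fell by 0.47 at 6 h and by 0.51 at 24 h (limma, adjusted p = 0.0185 and 0.00274), the 6 h call being lost without Lixingeng or ZS97, and without both Lixingeng and MH63 (0.0865). LYP4, another receptor with the same kind of domain, fell by 0.28 at 24 h (limma, adjusted p = 0.000863). The receptor CERK1 did not pass, with log2 changes of 0.06 at 6 h and 0.08 at 24 h (limma, adjusted p = 0.399 and 0.168). They were above 0 in 7 of 8 and 8 of 8 accessions. The kinases downstream went both ways. MPK5 rose by 0.95 ± 0.59 at 6 h and by 1.90 ± 0.75 at 24 h (limma, adjusted p = 0.00594 and 1.25e-06), while MAPK6 fell by 0.46 and by 0.78 (0.00532 and 5.30e-06). RBOHB, an oxidase that makes reactive oxygen, fell by 0.35 at 24 h (limma, adjusted p = 0.000108).

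The transcription factors WRKY71, WRKY24 and NAC4 were among the genes that rose. WRKY71 (LOC4328512) read a median of 3185 (2369 to 4288) at 6 h and 4658 (3748 to 6046) at 24 h, against 608 (308 to 3841) before cold. It rose by 2.19 ± 1.12 at 6 h and 2.76 ± 1.18 at 24 h (limma, adjusted p = 8.67e-05 and 8.66e-07), and its dimmer second probe set changed by 0.80 (0.0743) and 2.14 (5.24e-06). WRKY24 rose by 1.50 ± 0.68 and 3.11 ± 0.91 (limma, adjusted p = 0.000587 and 5.11e-08), in 8 of 8 accessions. NAC4 rose by 2.76 ± 0.88 at 24 h (limma, adjusted p = 8.73e-08) and by 0.90 ± 0.75 at 6 h (0.0180), where the call was lost in 4 of 8 cases of leaving out 1 accession. Of the genes that act on fungal walls or make defence compounds, the chitinase CHT6 rose by 1.69 at 24 h (limma, adjusted p = 2.81e-07) and the chitinase CHT10 fell by 1.00 (0.000478). The cytochrome P450 genes CYP71Z7 and CYP99A3 fell by 0.63 and 0.32 at 24 h (limma, adjusted p = 0.0328 and 0.0190), the first a call lost in 4 of 8 such cases. EIN2, of ethylene signalling, fell by 0.33 at 6 h (limma, adjusted p = 0.0113), a call lost without Muguanuo (0.0505).

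The named genes whose pattern was most like that of EL2 were ranked by Pearson r with Os.27807.1.S1_at over 24 arrays, after each accession's mean was taken off. These r values are a description, since all points share arrays and the step from before to cold. Of 57258 probe sets, 273 besides those of EL2 had r of 0.9 or more and 70 had 0.95 or more, and the median was -0.07. Probe sets outside the ranking of named genes reached r of 0.988. Among the named genes ABA8OX1, an enzyme that breaks down abscisic acid, was the most like, with r = 0.976. Over 18 arrays without Lixingeng and MH63 its r was 0.997. It changed by a mean log2 of 3.47 at 6 h and 4.39 at 24 h. OsWRKY71 followed (0.964), the same gene as WRKY71 of the chitin list. The calmodulin-like calcium sensors CML16 (0.962), CML15 (0.960) and CML31 (0.959) came next, with changes at 6 h of 2.42, 2.88 and 2.46, close to that of EL2. The rest of the 10 were MYB2 (0.959), the formin FH16 (0.956), the jasmonate repressor JAZ10 (0.956), DREB1B (0.955) and NAC067 (0.955). Of these 10 genes, 8 were in the top 10 without Lixingeng and MH63, and 7 when the accession means were kept. Least like were IRL1 (-0.977), OsTLP3 (-0.975) and CYCP2-1 (-0.965). CYCP2-1 is a P-type cyclin, and it read a median of 72.3 at 6 h and 36.2 at 24 h, against 200.4 before cold. It fell by 1.22 ± 0.44 at 6 h and by 1.65 ± 0.41 at 24 h (limma, adjusted p = 4.01e-06 and 2.61e-08), in 8 of 8 accessions at both times. Of the 6 measured cyclins of types H, P and T it was the one called at 6 h, and CYCT1-2 was called with it at 24 h (by -0.47), and without Lixingeng and MH63 also at 6 h (-0.26; limma, adjusted p = 0.00344).

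**Figure D5:**
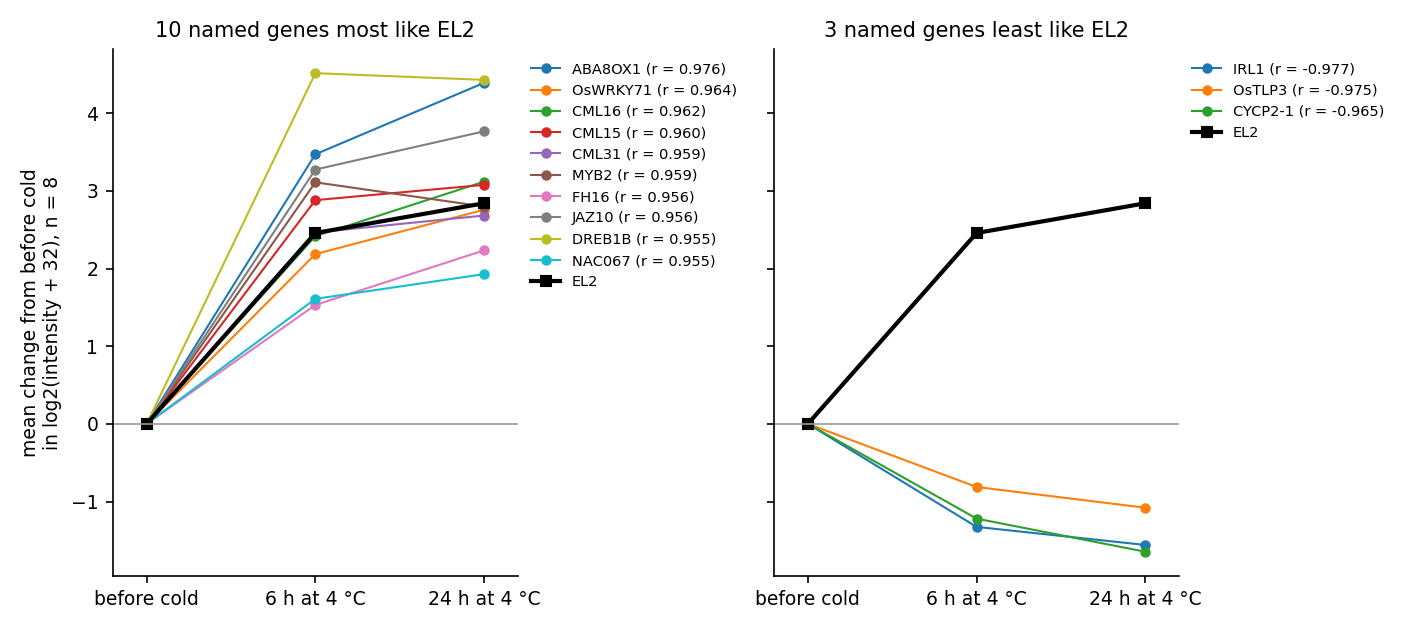
Mean change from before cold in log2(intensity + 32) over 8 accessions of EL2 (black, Os.27807.1.S1_at) and of the 10 named genes most like it on the left and the 3 least like it on the right. EL2 lies at 2.46 and 2.84, near CML16 and CML31, and IRL1, OsTLP3 and CYCP2-1 lie below 0 at both times.

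The genes next to EL2 on chromosome 3 in the RefSeq order, looked up after the values of EL2 were seen, did not rise with it. LOC4331331, on one side and not overlapping EL2, read 158 to 271 over all arrays, with log2 changes of -0.03 at 6 h and -0.10 at 24 h (limma, adjusted p = 0.870 and 0.362). On the other side, LOC4331333 changed by 0.08 and 0.02 (limma, adjusted p = 0.664 and 0.925). LOC4331334, beyond it and dim at 12.7 to 39.6, changed by -0.14 at 6 h (limma, adjusted p = 0.139) and fell by 0.42 at 24 h (8.15e-06).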

How the data were processed

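The authors deposited 1 column per array, taken here as linear intensity of each probe set. Total RNA was extracted with TRIzol and labelled with biotin, per the labels' protocols; how probes were summarised and scaled is not given in the sources used here. Of 57381 probe sets, 123 controls were left out and 57258 tested; 22436 had 1 gene. Array medians lay between 41.8 and 46.7, and the number of arrays limits the precision. Names came from the annotation table and RefSeq (ASM3414082v1), with 1 probe set per gene, that of the highest mean, shared ones (_x_at, _s_at) set aside where another existed.

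The log2 of the deposited intensity plus 32 was fitted in limma 3.58.1 (R 4.3.3; lmFit, eBayes with trend) with time and accession as terms and Benjamini-Hochberg adjustment over all probe sets; the threshold was 0.05. Accession was a block because each accession has all 3 times. Within accessions, deviations from the time means correlated at r of 0.248 to 0.886 in all 24 pairs. Pairs with the Lixingeng array before cold or the MH63 array at 24 h had r of 0.248 to 0.322, and the rest had 0.652 or more. The fit was tested on simulated data. Tables and plots were made in Python 3.11.15 (pandas 2.3.3, numpy 2.4.6, matplotlib 3.10.9).

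EL2 and the lists were chosen with earlier results of these data known. The lists held 69 cell cycle genes, of which 54 were measured, and 34 of the chitin pathway, of which 32 were, matched by RefSeq symbol or synonym. The text names all CDK inhibitors, D-type cyclins and A-type kinases, the 3 largest called rises and falls of the cell cycle list, all called genes of the chitin list, and the 10 most and 3 least like genes; other cell cycle genes were named after their values were seen. Protein and promoter sequences were not used here, so planned comparisons with them were not made.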

Additional observations from a re-analysis of the deposited data

Results flagged for a closer look

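Among the changes of EL2 and of genes set beside it, 48 sets of 8 accessions were examined for a sample far from the others, and 6 held one; chance gives about 1 in 20. None was a value of EL2. Lixingeng, whose array before cold stood apart, was the far sample in 5. In Lixingeng the log2 change of DREB1B was 0.0378 at 6 h, with the others at 3.90 to 6.01, and -0.0169 at 24 h, with the others at 3.91 to 6.31. DREB1A changed there by 0.20 at 6 h, with the others at 3.84 to 5.81. For CYCD6-1 the change at 6 h in Lixingeng was -0.44, with the others at 0.22 to 0.50. KRP5 changed in Lixingeng by 0.0732 at 6 h, with the others at -0.33 to -0.14. The remaining one was KRP1 in 9311, at -0.94 at 6 h, with the others at -0.43 to -0.01.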

How the results depend on the processing

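EL2 kept its direction under all alternatives run: offsets of 1 and 64, quantile normalization, equal array medians, its other probe set, without Lixingeng and MH63, and without each accession in turn. Its log2 change was 1.56 at 6 h and 2.05 at 24 h by the other probe set, and 2.37 to 2.62 and 2.72 to 3.03 without 1 accession. Without the replicate block (the accession), the cell cycle list had 1 call at 6 h in place of 11, the chitin list 1 in place of 7 at 6 h and 7 in place of 12 at 24 h, and the cell cycle list 18 in place of 27 at 24 h. Without 1 accession the cell cycle count at 6 h was 5 to 11. The cell cycle count at 24 h lay between 18 and 28 over 16 alternatives, and the accession call of EL2 passed in all run, array weights among them. The cause was not tested. Readings under the array medians limit the dim cyclins, SMR1 and CDKA-1.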
